A study of Homo sapiens with 6 samples.

Results

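The genes described here are the enzymes of glycolysis and their isoenzymes, followed to lactate and to the entry of pyruvate into mitochondria, in SKM-1 cells. They were taken by symbol from the deposited gene table, which held 1 row for each of the 34 genes among its 58735 genes, and they form 14 enzyme families. SKM-1 is a human myeloid leukaemia line. The labels name no genetic change; 3 libraries are titled celastrol, a plant triterpenoid, and 3 are titled DMSO, the solvent. The treatment label of each sample gives the same groups, but the protocol text names celastrol for 48 h for all 6 samples. Groups here follow the titles and treatment labels, and no time is stated for DMSO itself. The sources used here state no dose. They also do not say whether the libraries of 1 treatment are separate cultures, so each p-value measures only how these libraries vary, which may be technical variation.

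Values are FPKM, read fragments divided by gene length and by a total for the library. That length covers all annotated exons of a gene together (7318 bases for PFKM), which can be longer than the transcript in use. Levels, shares and sums across genes are therefore approximate, while the same length applies to 1 gene in every library. The reads behind them came to between 15231742 and 16231066 in the celastrol libraries and between 13549187 and 15410904 in the DMSO libraries. Mitochondrial genes took 1.54 ± 0.271% of the listed reads in the celastrol libraries and 5.52 ± 0.113% in the DMSO libraries (SD, n = 3 a group). Of 20 myeloid markers, 8 reached the minimum level for testing. CTSG was listed at 0 in all 6 libraries and MPO did not pass 0.0337 FPKM, while LYZ averaged 17.6 FPKM with celastrol and 38.0 FPKM with DMSO. SPI1, a myeloid transcription factor, averaged 22.3 FPKM with celastrol and 17.9 FPKM with DMSO. Several erythroid markers were abundant, with RHAG at 290 FPKM and GATA1 at 111 FPKM with celastrol, against 261 FPKM and 158 FPKM with DMSO. Both lists were mixed. The granule gene AZU1 averaged 6.33 FPKM with celastrol and 11 FPKM with DMSO, while the adult globin gene HBB averaged 0.126 FPKM with celastrol and 0.0362 FPKM with DMSO, and the red cell anion exchanger SLC4A1 0.347 FPKM with celastrol and 2.98 FPKM with DMSO. HBB and SLC4A1 were picked after their values were seen.

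Glycolysis splits glucose into pyruvate in the cytosol and yields ATP without oxygen. Hexokinase, phosphofructokinase and pyruvate kinase catalyse its irreversible steps, and most steps have isoenzymes from separate genes that differ by tissue. Pyruvate is then reduced to lactate by lactate dehydrogenase or oxidised in mitochondria by the pyruvate dehydrogenase complex, which the PDK kinases switch off. Mature red cells have no mitochondria and depend on this pathway for ATP. PKLR gives their pyruvate kinase, and BPGM makes the bisphosphoglycerate that loosens the grip of haemoglobin on oxygen.

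Most of the pathway below fructose bisphosphate was more abundant with celastrol, and pyruvate kinase changed its isoenzyme make-up. Of the 34 genes, 28 had a mean of at least 1 FPKM over the 6 libraries and were tested with all 12685 genes that passed this minimum (limma-trend on log2 values of FPKM + 0.1, Benjamini-Hochberg adjusted p under 0.05). Celastrol raised 11 of the 28 (PFKM, ALDOC, TPI1, PGK1, PGAM1, BPGM, ENO1, ENO2, PKM, LDHA and PDK4) and lowered HK1 and PKLR. Among all genes tested, 29.5% were called, 15.3% higher and 14.2% lower, so the 39.3% of glycolytic genes called higher lay above the background share and the 7.14% called lower lay under it. The glycolytic genes were chosen with earlier results of these data known. The median log2 fold change was 0.26 for the 28 genes and 0.02 for all genes tested. The celastrol and DMSO libraries did not overlap for 18 of the 28 genes, or 64.3%, against 47.3% of all genes tested. Of the 18, 15 were higher and 3 lower, where 25.3% of all genes were higher and 22% lower without overlap. With a difference of at least 1.5-fold also required, a limit added after the data were seen, PKM, PGAM1 and ALDOC were called higher and HK1 and PKLR lower, against 5.18% higher and 6.1% lower of all genes tested.

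**Figure D1:**
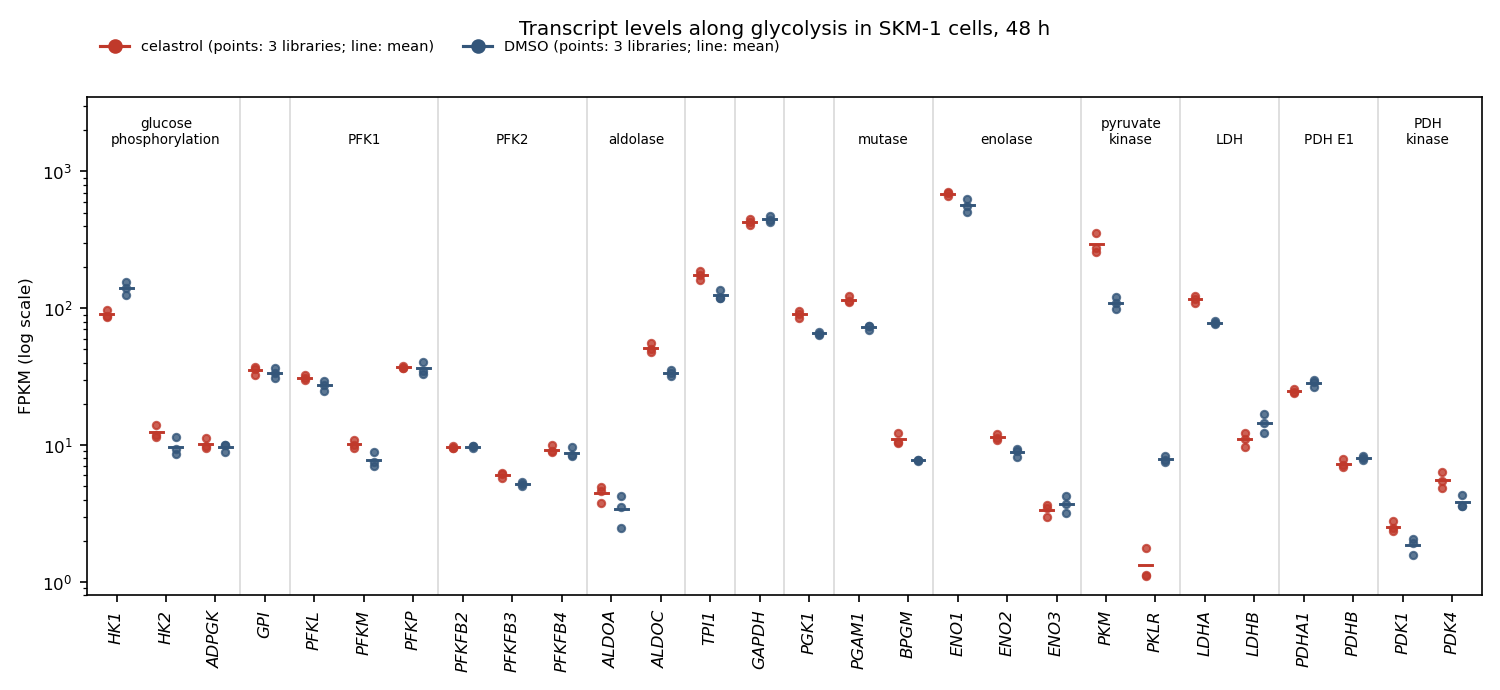
FPKM on a log scale for the 28 tested genes in pathway order, with celastrol libraries left of DMSO libraries, 1 point per library and a line at each mean. ENO1, GAPDH and PKM were the most abundant with celastrol, at means of 689, 427 and 297 FPKM, and PKLR was the gene whose celastrol points lay farthest under its DMSO points.

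How many glycolytic genes were called depended on the scaling and on single libraries. Rescaling to TPM moved the median of all genes by 0.24 on the log2 scale and raised the count of glycolytic genes called higher to 22 of 28, while 41.5% of all genes were then called higher and 6.41% lower. Scaled to listed reads, 15 were higher and 2 lower, against 23.8% and 10.2% of all genes, and scaled to nuclear reads 14 and 2, against 18.5% and 12.5%. Quantile normalization gave 12 higher and 4 lower, against 14.9% and 14.7%, and limma-voom on the recovered reads 16 and 2, against 28.8% and 11.5%. With no filter on low values 8 of 33 were higher and 2 lower, against 4.14% and 4.19%, and with a minimum of 5 FPKM 11 of 23 were higher and 2 lower, against 20.8% and 17.5%. Relative to the median of all genes, the glycolytic median was 0.23 with the deposited values and 0.23 after TPM. TPM multiplies all genes of a library by 1 factor, so this difference could hardly change there. It was 0.17 without DMSO replicate 2, 0.28 without DMSO replicate 1 and 0.19 with a minimum of 5 FPKM. Without celastrol replicate 2, 7 genes were called higher and 2 lower, against 8.89% and 8.9% of all genes; without celastrol replicate 3 the counts were also 7 and 2, against 9.68% and 10.1%. Without DMSO replicate 3, 8 were higher and 2 lower, against 8.87% and 7.78%. Leaving out celastrol replicate 1, DMSO replicate 1 or DMSO replicate 2 gave 10, 12 and 10 higher and 2, 3 and 3 lower, where 11.3%, 14.6% and 15.3% of all genes were higher and 11.3%, 12.7% and 13.9% lower. HK1 and PKLR were called lower in every one of these fits except that PKLR fell under the minimum of 5 FPKM.

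Pyruvate kinase, which makes pyruvate and ATP from phosphoenolpyruvate, showed the largest rise and the largest fall among these genes. PKM, the gene of the muscle-type and proliferating-cell enzymes M1 and M2 (chromosome 15, 72199029 to 72231822, minus strand), had 258, 276 and 356 FPKM in celastrol libraries 1 to 3, against 122, 99.5 and 109 FPKM in DMSO libraries 1 to 3. Every celastrol library was above every DMSO library, and celastrol replicate 3 was the highest. The means differed 2.70-fold (log2 fold change 1.42, SE 0.13, limma adjusted p = 0.00045), and without celastrol replicate 3 the log2 fold change was 1.28. Values per gene do not separate the M1 and M2 transcripts.

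PKLR, the gene of the liver and red cell enzymes (chromosome 1, 155289293 to 155301438, minus strand), had 1.76, 1.12 and 1.11 FPKM with celastrol, against 8.33, 7.55 and 7.75 FPKM with DMSO. These levels rested on 88, 59 and 59 reads in the celastrol libraries and on 380, 322 and 365 reads in the DMSO libraries. The groups lay far apart, with a 5.92-fold lower mean with celastrol (log2 fold change -2.51, SE 0.17, limma adjusted p = 0.000155). Of the PKLR exon bases, 17.6% are shared with HCN3 on the other strand, which had 3.31 to 3.71 FPKM with celastrol and 3.84 to 5.31 FPKM with DMSO. PKLR made up 0.464 ± 0.191% of pyruvate kinase FPKM in the celastrol libraries and 6.70 ± 0.324% in the DMSO libraries (SD, n = 3 a group), so PKM was the main isoenzyme gene in both groups. This share depends on the gene lengths used, 3168 bases for PKLR and 8571 for PKM. In DMSO library 1, PKLR had 380 reads and PKM 15011.

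The fall of PKLR stood beside lower red cell markers. Of 26 erythroid markers, 23 were tested. Of these, 14 were lower with celastrol and 0 higher, with a median log2 fold change of -0.93, and no marker was at 0 in all libraries. For this and the other marker lists, the background was 15.3% higher and 14.2% lower over all genes tested. The lists were chosen with earlier results of these data known, so their counts are no independent readout of lineage. The summed level of the erythroid markers was 641 to 701 FPKM with celastrol and 893 to 911 FPKM with DMSO. KLF1, an erythroid transcription factor, had 52.4, 39.1 and 40.6 FPKM with celastrol, against 112, 95.7 and 106 FPKM with DMSO (log2 fold change -1.25, SE 0.12, limma adjusted p = 0.000527), and GATA1, the master regulator of the lineage, fell with a log2 fold change of -0.52 (limma adjusted p = 0.00754). GYPC, a red cell membrane glycoprotein, fell with a log2 fold change of -0.91, while RHAG was at 0.15 and was not called (limma adjusted p = 0.125). Other blood markers moved as well: 3 of 8 tested myeloid markers were lower and 0 higher (summed level 56.6 to 60.9 FPKM with celastrol and 75.8 to 87.2 FPKM with DMSO, CTSG at 0). The myeloid gene SPI1 was at 0.33 and was not called (limma adjusted p = 0.130). Of 4 tested megakaryocyte markers 3 were lower and 0 higher (76.9 to 95.8 FPKM with celastrol and 117 to 134 FPKM with DMSO, GP9 and PF4 at 0), and of 3 tested lymphoid markers 2 were higher and 0 lower (15.5 to 16.2 FPKM with celastrol and 8.46 to 10.5 FPKM with DMSO, MS4A1 at 0). The part of these markers in the result for PKLR was not tested, and in bulk libraries fewer cells of a type and less RNA per cell cannot be told apart.

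The 250 bases before a start of transcription are shown for PKLR and PKM, as the genes that moved most, and for LDHA, PGK1 and ALDOC, as called members for which hypoxia-response letters were found. They come from RefSeq on build GRCh38.p14, 5′ to 3′ on the strand of the gene, and 33 of the 34 genes matched that table, with 60 windows. For PKLR the window ends at the outer of its listed starts (chr1:155301439-155301688), and capitals mark GATA letters (AGATAA, with AGATAG as a variant, and likewise TGATAA, with TGATAG as a variant, on either strand). The windows of PKM (chr15:72231191-72231440, minus strand), LDHA (chr11:18394313-18394562, plus strand), PGK1 (chrX:78103998-78104247, plus strand) and ALDOC (chr17:28576896-28577145, minus strand) have capitals at ACGTG, with GCGTG as a variant, on either strand, the core letters of a hypoxia-response element. The E-box CACGTG holds such letters on both strands.
PKLR: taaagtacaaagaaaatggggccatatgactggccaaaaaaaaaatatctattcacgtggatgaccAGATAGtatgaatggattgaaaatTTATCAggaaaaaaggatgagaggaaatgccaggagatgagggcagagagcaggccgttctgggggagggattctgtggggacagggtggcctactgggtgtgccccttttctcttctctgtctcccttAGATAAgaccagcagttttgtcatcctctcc
PKM: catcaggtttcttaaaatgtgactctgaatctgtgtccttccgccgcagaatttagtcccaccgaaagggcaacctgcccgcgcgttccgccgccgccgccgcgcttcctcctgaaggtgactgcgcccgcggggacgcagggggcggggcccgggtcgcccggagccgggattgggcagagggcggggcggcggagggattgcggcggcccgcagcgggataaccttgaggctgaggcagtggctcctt
LDHA: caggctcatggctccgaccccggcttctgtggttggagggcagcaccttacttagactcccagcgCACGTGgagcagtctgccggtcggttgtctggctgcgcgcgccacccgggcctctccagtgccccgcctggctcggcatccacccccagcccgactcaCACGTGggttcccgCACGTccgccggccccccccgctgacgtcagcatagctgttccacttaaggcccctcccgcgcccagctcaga
PGK1: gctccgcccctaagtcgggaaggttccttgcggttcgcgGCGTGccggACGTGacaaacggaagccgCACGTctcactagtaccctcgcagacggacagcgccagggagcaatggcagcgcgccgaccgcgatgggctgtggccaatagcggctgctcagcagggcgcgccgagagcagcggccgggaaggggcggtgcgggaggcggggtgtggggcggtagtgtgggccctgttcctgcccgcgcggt
ALDOC: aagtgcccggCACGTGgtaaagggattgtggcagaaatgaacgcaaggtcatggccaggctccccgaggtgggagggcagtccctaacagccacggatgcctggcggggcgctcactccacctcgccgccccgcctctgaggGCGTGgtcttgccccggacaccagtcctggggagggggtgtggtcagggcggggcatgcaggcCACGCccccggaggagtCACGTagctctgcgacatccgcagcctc

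In the PKLR window 3 GATA matches were found, the nearest with its first base 31 bases before the start. The window at the other listed start of PKLR held 0 GATA matches. The spelling CCACACCC of the CACCC box, which KLF-type factors bind, was not found on either strand. No other spelling of this box was searched. The shorter letters CACCC do occur on the opposite strand of the window, printed above as gggtg. The search therefore cannot decide whether the window lacks a CACCC box. GATA letters were in 21.7% of the windows of the glycolytic genes, 13.5% of the windows of all genes tested and 22.3% of all RefSeq windows of this length. The LDHA and ALDOC windows each held 5 matches to the hypoxia-response core, PGK1 held 3 and PKM held 0. At the other listed start of LDHA the window held 1 such match. The PKLR window held 2, in lower case above and including an E-box, and windows of HK2 and PDHB, which were not called, held 6 each. That core was in 55.0% of the windows of the glycolytic genes, 47.4% for those called higher and 78.3% for those tested and not called. It was in 57.1% of the windows of all genes tested and in 43.2% of all RefSeq windows. These matches describe letters in a window, and no binding was measured.

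**Figure D2:**
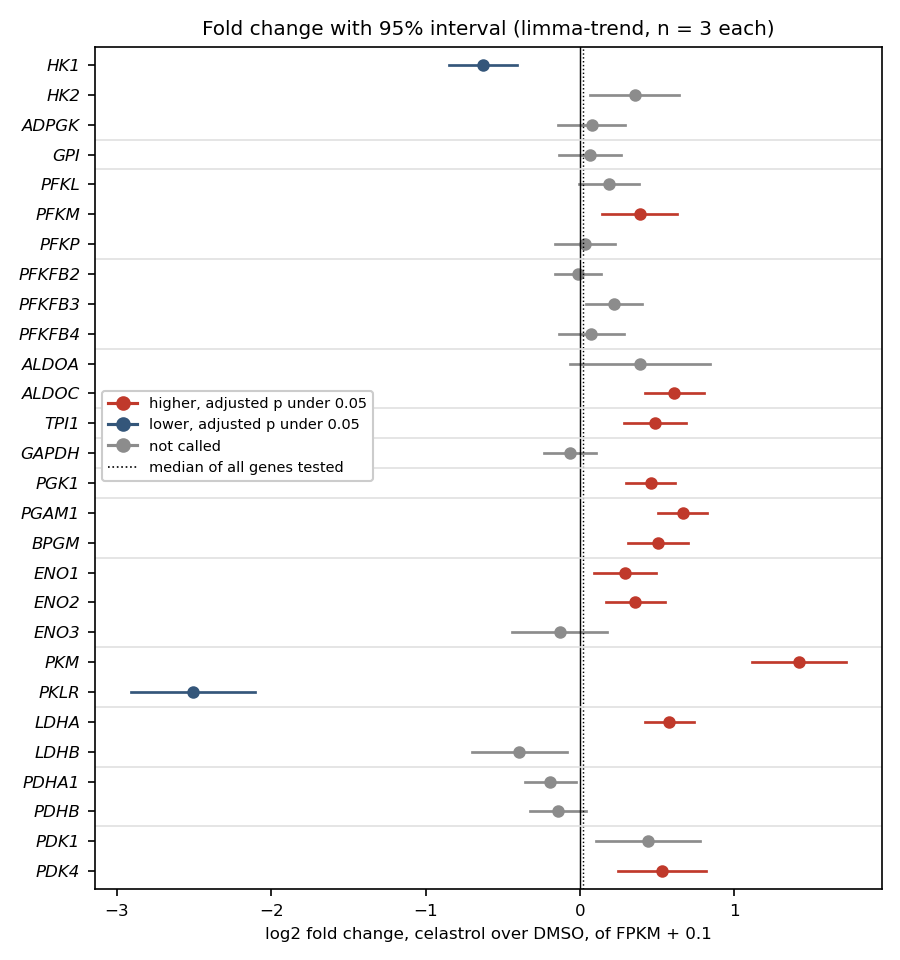
Log2 fold change of celastrol over DMSO with its 95% interval from limma-trend for the 28 tested genes in pathway order, on values of FPKM + 0.1 (n = 3 libraries each). PKM at 1.42 and PKLR at -2.51 mark the ends of the range, and the dotted line at 0.02 is the median of all genes tested.

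At the top of the pathway, the hexokinases trap glucose in the cell as its phosphate. HK1 fell, while HK2 and ADPGK were not called and had log2 fold changes above 0. HK1, the isoenzyme of red cells, brain and most other tissues (chromosome 10, 69269984 to 69401884), had 96.7, 88.3 and 85.8 FPKM with celastrol, against 154, 124 and 141 FPKM with DMSO. Every celastrol library was under every DMSO library, and the mean was 1.55-fold lower (log2 fold change -0.63, SE 0.09, limma adjusted p = 0.00314). HK2, the inducible isoenzyme of muscle and many tumours, had 14.0, 11.8 and 11.5 FPKM with celastrol and 11.4, 8.56 and 9.34 FPKM with DMSO. Its groups did not overlap, but its log2 fold change of 0.35 missed the threshold (limma adjusted p = 0.0671), and it passed under 7 of 16 alternatives. ADPGK, an ADP-dependent glucokinase, averaged 10.2 FPKM with celastrol and 9.63 FPKM with DMSO (limma adjusted p = 0.570).

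The next steps showed small differences. GPI, the glucose phosphate isomerase, averaged 35.3 FPKM with celastrol and 33.8 FPKM with DMSO (limma adjusted p = 0.597). Of the phosphofructokinase genes, which catalyse the committed step, PFKM was called higher, with 9.59, 10.0 and 11 FPKM with celastrol against 8.87, 6.99 and 7.56 FPKM with DMSO (log2 fold change 0.39, limma adjusted p = 0.0274). PFKM missed the threshold in the absence of celastrol replicate 2 or 3 or of DMSO replicate 2 or 3 (adjusted p up to 0.0933) and with no filter on low values (0.0758). Of the PFKM exon bases, 8.58% are shared with SENP1 on the other strand. PFKL and PFKP, the liver and platelet types, were more abundant than PFKM and were not called, at log2 fold changes of 0.19 and 0.03. The PFKFB genes make and remove the sugar phosphate that activates phosphofructokinase. PFKFB2, PFKFB3 and PFKFB4 were at -0.01, 0.22 and 0.07 on the log2 scale, and none of these passed (limma adjusted p = 0.896, 0.0708 and 0.561).

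Aldolase and triose phosphate isomerase, which split the hexose and interconvert the products, were higher. ALDOC, the brain-type aldolase and the main listed aldolase gene here (chromosome 17, 28573115 to 28577264), had 55.9, 48.1 and 50.0 FPKM with celastrol, against 35.3, 31.8 and 33.4 FPKM with DMSO. The groups stood clear of each other (log2 fold change 0.61, SE 0.08, limma adjusted p = 0.00194). ALDOA, the muscle and general type, was listed at only 3.78 to 4.94 FPKM with celastrol and 2.48 to 4.27 FPKM with DMSO and was not called (limma adjusted p = 0.173). Of its exon bases, 42.3% are shared with AC093512.2 on the same strand, so its level is uncertain. Summed with AC093512.2, which averaged only 0.927 FPKM, the log2 difference was 0.42, against 0.40 for ALDOA alone. Any reads left out because they fell on both genes would be in neither value, so this sum cannot check the level of ALDOA. The ALDOA share, its ratio to ALDOC and the aldolase sum given below carry the same limit. TPI1 had 175, 161 and 187 FPKM with celastrol, against 136, 118 and 119 FPKM with DMSO (log2 fold change 0.49, limma adjusted p = 0.00617).

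The payoff phase, from triose phosphate to phosphoenolpyruvate, rose at every step except GAPDH. GAPDH, which makes the first NADH of the pathway and often serves as a reference gene, had 426, 404 and 451 FPKM with celastrol, against 470, 427 and 443 FPKM with DMSO, and these ranges overlapped (log2 fold change -0.07, SE 0.07, limma adjusted p = 0.530). Its direction turned to 0.18 under TPM, where it passed as higher (adjusted p = 0.0330), and was above 0 when scaled to listed reads and under quantile normalization and limma-voom. PGK1, the first ATP-producing enzyme (chromosome X, 77910739 to 78129296), had 95, 84.8 and 90.3 FPKM with celastrol, against 64.2, 64.9 and 67.2 FPKM with DMSO. PGAM1, the general mutase (chromosome 10, 97426160 to 97433441), had 113, 111 and 123 FPKM with celastrol, against 74.4, 74.1 and 69.9 FPKM with DMSO. Both genes were well separated between the groups, with log2 fold changes of 0.46 for PGK1 (SE 0.07, limma adjusted p = 0.00298) and 0.67 for PGAM1 (SE 0.07, limma adjusted p = 0.000683).

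BPGM, which diverts the pathway in red cells as described, moved against the red cell markers. It had 10.5, 10.4 and 12.3 FPKM with celastrol, against 7.69, 7.78 and 7.79 FPKM with DMSO (log2 fold change 0.51, SE 0.08, limma adjusted p = 0.00480). Among the enolases, ENO1, the general type and the most abundant gene of the set, had 694, 665 and 707 FPKM with celastrol, against 624, 508 and 561 FPKM with DMSO. Its groups did not overlap, but DMSO replicate 1 lay near the celastrol libraries, and the call (log2 fold change 0.29, limma adjusted p = 0.0397) was lost without any single library other than DMSO replicate 1 (highest adjusted p = 0.127) and with no filter on low values (0.245). ENO2, the neuronal type, averaged 11.4 ± 0.523 FPKM in the celastrol libraries and 8.89 ± 0.646 FPKM in the DMSO libraries (SD, n = 3 a group; log2 fold change 0.36, limma adjusted p = 0.0145), which missed the threshold when celastrol replicate 2, celastrol replicate 3 or DMSO replicate 3 was absent (adjusted p up to 0.0654). ENO3, the muscle type, was at -0.13 and was not called (limma adjusted p = 0.489).

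At the lactate branch LDHA was called higher and LDHB was not called. LDHA, whose subunit prevails in tissues that make lactate (chromosome 11, 18394388 to 18408425), had 123, 110 and 118 FPKM with celastrol, against 76.3, 80.4 and 77.4 FPKM with DMSO. Its celastrol libraries were all above its DMSO libraries (log2 fold change 0.58, SE 0.07, limma adjusted p = 0.00121). LDHB, the heart-type subunit, had 11, 9.65 and 12.3 FPKM with celastrol, against 12.3, 16.7 and 14.5 FPKM with DMSO. The highest celastrol and lowest DMSO values of LDHB overlapped narrowly, and its log2 fold change of -0.39 missed the threshold (limma adjusted p = 0.0588). LDHB passed as lower under 3 of 16 alternatives, and under TPM it was at -0.15 (limma adjusted p = 0.373). Of the LDHB exon bases, 33.4% are shared with AC010197.2 on the same strand, which was listed at 0 FPKM. The level of LDHB and its share of the family are therefore uncertain.

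At the mitochondrial entry, neither gene of the E1 enzyme of pyruvate dehydrogenase was called. PDHA1 had 25.8, 24.2 and 24.4 FPKM with celastrol, against 29.7, 26.5 and 28.8 FPKM with DMSO (log2 fold change -0.19, limma adjusted p = 0.0811), and under TPM its direction turned to 0.05. Of the PDHA1 exon bases, 21.3% are shared with MAP3K15 on the other strand, which did not pass 0.109 FPKM. PDHB was at -0.14 (limma adjusted p = 0.211) and turned to 0.10 under TPM. PDK4, the kinase induced in fasting, which inhibits that enzyme, had 4.89, 5.49 and 6.37 FPKM with celastrol, against 3.57, 3.60 and 4.30 FPKM with DMSO. Its groups did not overlap (log2 fold change 0.53, SE 0.12, limma adjusted p = 0.0161), and the call was narrowly lost without celastrol replicate 2 or 3 (adjusted p = 0.0505 and 0.0509) and with no filter on low values (0.0538). PDK1, a kinase induced by hypoxia in many cells, averaged 2.54 ± 0.211 FPKM in the celastrol libraries and 1.85 ± 0.239 FPKM in the DMSO libraries (SD, n = 3 a group; log2 fold change 0.44, limma adjusted p = 0.0545).

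**Figure D3:**
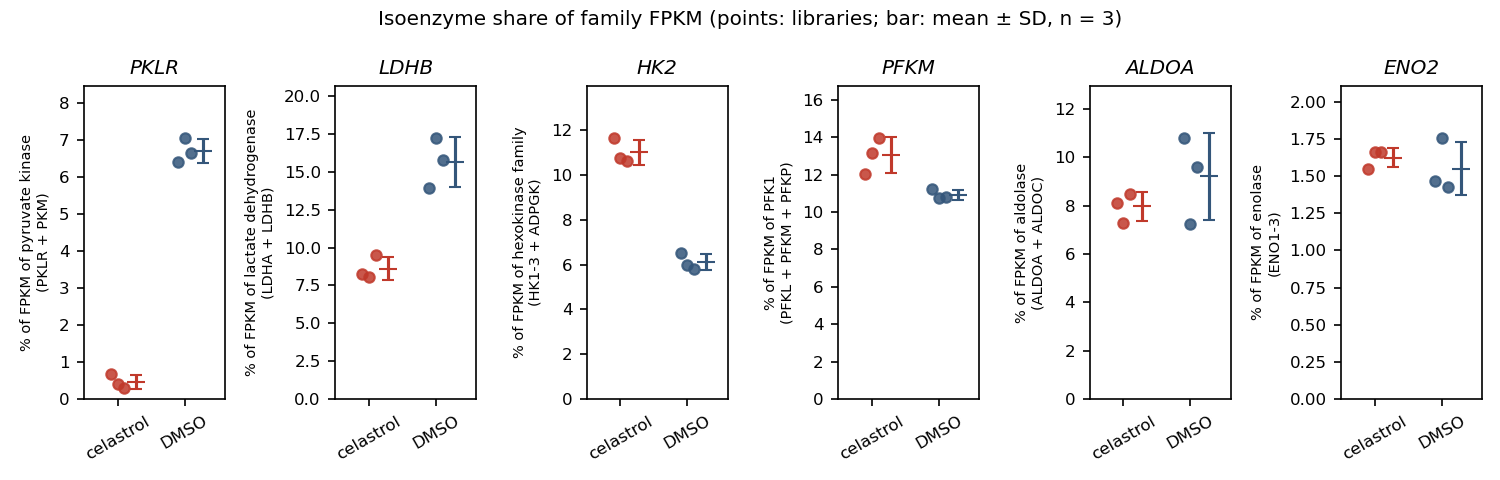
Share of each family's summed FPKM held by 1 isoenzyme gene, in percent, with 1 point per library and the mean ± SD beside it (n = 3 each; each axis starts at 0). PKLR and LDHB held smaller shares with celastrol and HK2 and PFKM larger ones, while the libraries of the groups overlapped for ALDOA and ENO2.

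Ratios of isoenzymes within a library do not depend on the library total. Of 14 ratios of a gene to the most abundant gene of its family, 9 did not overlap between the groups. The smallest p that 3 libraries against 3 allow is 0.1 (two-sided exact permutation test, 0.156 after adjustment over the 14 ratios). PDHA1 and PDHB are subunits of 1 enzyme, and ADPGK is an ADP-dependent enzyme grouped with the hexokinases. Levels of single genes did not overlap for 47.3% of those tested, but no such share was computed for ratios. Ratios with the same denominator, such as HK2 and ADPGK to HK1, are not independent. The log2 ratio of PKLR to PKM was -7.20, -7.94 and -8.33 with celastrol, against -3.87, -3.72 and -3.81 with DMSO, a difference of -4.02. HK2 stood at 13.8% of HK1 with celastrol and 6.95% with DMSO, a log2 difference of 0.99 that ranged from 0.95 to 1.03 when any single library was left out. LDHB, with the exon overlap given above, stood at 9.39% of LDHA with celastrol and 18.5% with DMSO, a log2 difference of -0.98. The ratios of ADPGK to HK1, PFKL to PFKP, PFKM to PFKP, PFKFB3 to PFKFB2, BPGM to PGAM1 and ENO3 to ENO1 also did not overlap, with log2 differences between -0.43 and 0.71. ALDOA to ALDOC, ENO2 to ENO1, PFKFB4 to PFKFB2, PDHB to PDHA1 and PDK1 to PDK4 overlapped (exact p from 0.4 to 0.7).

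Summed over the genes of each family, the first step was lower and pyruvate kinase was the step with the largest rise. These sums put ADPGK with the hexokinases and add the subunit genes PDHA1 and PDHB. The hexokinase family totalled 113 ± 6.60 FPKM in the celastrol libraries and 159 ± 16 FPKM in the DMSO libraries (SD, n = 3 a group). Pyruvate kinase totalled 298 ± 51.9 FPKM with celastrol and 118 ± 11.5 FPKM with DMSO, a log2 difference of 1.33. Of the 14 families, the sums of 10 did not overlap between the groups, 8 higher and 2 lower (hexokinase and pyruvate dehydrogenase E1), each at the smallest possible p of 0.1 (two-sided exact permutation test, 0.14 after adjustment over the families). Of single genes tested, 47.3% did not overlap, 25.3% higher and 22% lower, but no such share was computed for sums. GPI, TPI1 and PGK1 are the only genes of their families here. PKM held 99.5% of its family sum with celastrol and 93.3% with DMSO, and ENO1 97.9% and 97.8%. The count of families therefore partly repeats the results for single genes. The isomerase, phosphofructokinase, PFKFB and GAPDH sums overlapped. Together the 34 genes took 1.24 ± 0.0614% of nuclear reads in the celastrol libraries and 0.937 ± 0.0548% in the DMSO libraries (SD, n = 3 a group), again without overlap (two-sided exact permutation p = 0.1). The most abundant genes weigh most in this share, so it does not describe each of the 34. PKM had 34914 to 51326 reads per celastrol library and 11485 to 15011 per DMSO library. ENO1 had 57821 to 62766 reads with celastrol and 36064 to 47417 with DMSO.

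**Figure D4:**
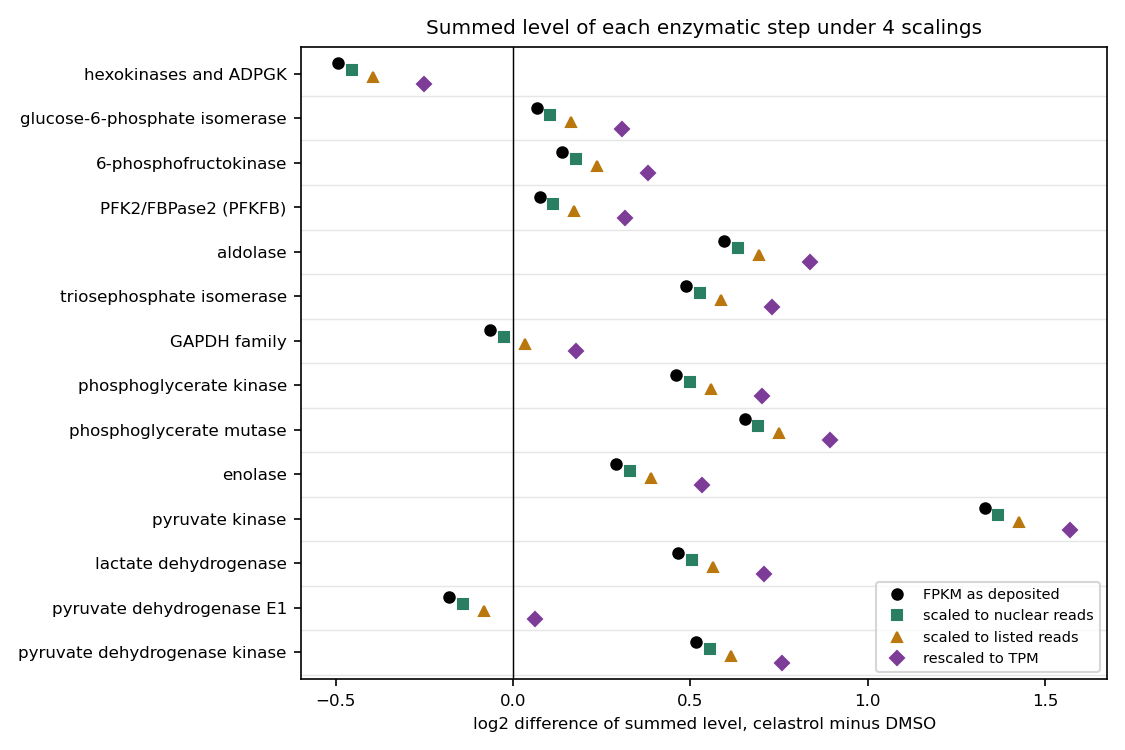
Log2 difference, celastrol minus DMSO, of the summed level of each of the 14 families, with the deposited FPKM and 3 other scalings as separate symbols. The hexokinase sum stays under 0 and the pyruvate kinase sum is the highest under each scaling, while the GAPDH sum crosses 0 under TPM and listed reads and the pyruvate dehydrogenase E1 sum under TPM.

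The 6 genes under the minimum got no test. PGAM2, the muscle mutase, was listed at 0 in all libraries, and all its exon bases are shared with DBNL on the other strand. HK3, a leukocyte hexokinase, had 1 read in all 6 libraries. PFKFB1, the sperm-type GAPDHS, PDK2 and PDK3 lay between 0 and 0.318 FPKM, with at most 11 reads in a library. Copies of these genes took few reads: 102 processed or other pseudogenes named after 11 members held between 0% and 1.46% of the reads of gene and copies together, with TPI1 and PGAM1 at the top.

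Neighbouring pathways were counted in the same fit, in which 15.3% of all genes tested were higher and 14.2% lower. These short lists, chosen with earlier results of these data known, are given as counts beside that background. Of 8 tested carriers of glucose, lactate and pyruvate, 4 were higher and 0 lower (median 0.33), led by SLC16A3, the lactate exporter MCT4, at 3.56 ± 0.303 FPKM in the celastrol libraries and 1.30 ± 0.171 FPKM in the DMSO libraries (SD, n = 3 a group; log2 fold change 1.39, limma adjusted p = 0.000718). SLC2A3, the glucose carrier GLUT3, rose with a log2 fold change of 0.82. Of 4 tested genes of the gluconeogenic bypass, PCK2, the mitochondrial PEP carboxykinase, was 2.78-fold lower and G6PC3, a glucose phosphatase, was 1.83-fold higher. Of 7 tested further genes of the pyruvate dehydrogenase complex, 2 were lower, DLD at -0.40 and the lipoate synthase LIAS at -0.53, and 0 higher. Glycogen and hexose side branches had 3 higher and 5 lower of 18, with PYGL, liver glycogen phosphorylase, at -1.28 and the fructokinase KHK at -0.81. Of 11 tested regulators, 3 were higher and 3 lower, with EGLN3, a hypoxia-inducible prolyl hydroxylase, at 1.77 (limma adjusted p = 0.00186) and KLF1, also on the erythroid list, at -1.25. Of 11 isoenzymes outside the set only LDHD, which uses D-lactate, reached the minimum, at -0.47 and not called (limma adjusted p = 0.150).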

How the data were processed

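RNA of 3 celastrol and 3 DMSO libraries of SKM-1 cells was sequenced; sample titles and the treatment label give the group. The deposited table gives FPKM per gene and library with gene length and position. The aligner HISAT2 (2.0.5), the counter featureCounts (1.5.0-p3) and build GRCh38 are named, per the submitters' processing notes; for settings, strandedness and library total the sources used here give nothing, so overlapping genes may share reads. All 58735 identifiers and positions matched GENCODE release 29, which gave the shared exon bases.

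In each library 100% of the deposited values above 0, multiplied by gene length, were whole numbers of reads (tolerance 0.001 of a read), and these reads were recovered. The authors' total was 1.04 to 1.05 times the listed reads with celastrol and 0.963 to 0.994 times with DMSO, which lowers celastrol relative to a scaling by listed reads.

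Tests used limma 3.58.1 in R 4.3.3 on log2(FPKM + 0.1), which understates fold changes of low genes; genes needed a mean of at least 1 FPKM, and Benjamini-Hochberg adjustment ran over all 12685 genes. Fold differences quoted as such are between mean FPKM. Ratios, sums and read shares used two-sided exact permutation tests (scipy 1.17.1). The limma step was checked on simulated counts. Within a treatment the chi-square per gene between libraries was 4.01 to 13.4, so no library repeated another. All 34 members are named whatever their result; of each related list, up to 2 called genes of largest change, or the most abundant; of marker lists, genes of high mean and those at 0, with MPO, HBB and SLC4A1 added after their values were seen. The members and lists were chosen with earlier results of these data known. Alternatives covered pseudocounts, filters, scalings, limma-voom, a replicate block and leaving out each library.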

Additional observations from a re-analysis of the deposited data

How the results depend on the processing

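Of the glycolytic genes, ALDOC, TPI1, PGK1, PGAM1, BPGM, PKM, LDHA and HK1 kept call and direction in all 16 alternatives of the limma test, and PKLR in the 15 in which it was tested (a minimum of 5 FPKM removed PKLR and PDK4). Leaving out each library gave 7 to 12 members higher and 2 to 3 lower, and 1125 to 1937 genes higher and 987 to 1767 lower over all. The 11 higher members became 22 under TPM, and 3 at a limit of 1.5-fold, which was chosen after seeing the data; the 2 lower became 4 under quantile normalization. Over all genes, 1947 higher became 5266 under TPM, 3024 scaled to listed reads and 3650 with limma-voom, and 1797 lower became 813 under TPM. Over all genes 52% of calls were higher as deposited, 86.6% under TPM, 70.0% with listed reads and 71.4% with limma-voom; for members the share was 84.6%, 91.7%, 88.2% and 88.9%. Directions turned for genes near 0: GAPDH (0.18 under TPM, 0.033 with listed reads, 0.15 under quantile normalization, 0.033 with limma-voom), PFKFB2 (0.23 under TPM, 0.084 with listed reads, 0.026 with nuclear reads, 0.085 with limma-voom), ENO3 (0.11), PDHA1 (0.049) and PDHB (0.10) under TPM, PFKP (-0.026 without DMSO replicate 2) and ADPGK (-6.49e-06 without celastrol replicate 3, 0.126 without celastrol replicate 2). The sums turned for GAPDH (0.18 under TPM, 0.033 with listed reads) and pyruvate dehydrogenase E1 (0.060 under TPM). The ratio of ENO2 to ENO1 turned to -0.12 under quantile normalization, PDHB to PDHA1 ranged from -0.016 to 0.094 and PDK1 to PDK4 from -0.24 to 0.037 over left-out libraries. Apart from the arithmetic of the scalings, the cause was not tested.

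Same-numbered libraries did not deviate together (r = -0.0156, -0.0326 and 0.0339), so the numbers give no pairing. The fit with a replicate block called 13 members higher, adding HK2 and ALDOA, and 2 lower, with 1776 genes higher and 1617 lower over all, or 14% and 12.7%; for the ratios the paired design allows no p under 0.25. With 59 to 88 reads of PKLR per celastrol library, counting error limits its level there more than that of PKM.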
